A study of Homo sapiens with 32 samples.

Results

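SOX2, SALL4, ZFP42, DPPA4, DNMT3B, TERF1 and USP44 are 7 nuclear proteins whose transcripts are abundant in human embryonic stem cells. They were chosen by name, and all of their merged m6A peaks in the count table were taken, which gave 31 of 26104 peaks in 7 of 7986 genes. The data came from H1 and MEL1, 2 human embryonic stem cell lines, as undifferentiated cells (S0) and at 3 stages of directed differentiation in vitro: S3 is the posterior foregut stage, S4 the stage of the pancreatic progenitor, and S6 that of the immature β-like cell. Each line and stage had 2 replicates, and each of the 16 preparations gave an input library of its mRNA fragments and an IP library of the fragments bound by an antibody to N6-methyladenosine (m6A), 32 libraries in all. The groups differ by line and stage alone as far as the labels say, and the labels call the samples of every stage hESCs. Nothing in the labels says whether the 2 replicates were separate differentiations, so the p-values measure the spread between these samples.

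m6A is the commonest internal mark of mRNA. It is written by a methyltransferase complex that holds METTL3 and METTL14, and reader proteins that bind it affect how long a transcript lasts and how it is translated. In embryonic stem cells SOX2 and SALL4 are DNA-binding factors of the core pluripotency network, ZFP42 (REX1) and DPPA4 are nuclear proteins used as markers of the undifferentiated state, and DNMT3B sets new DNA methylation. TERF1 is a shelterin protein that binds telomeric repeats, and USP44 is a deubiquitinase with roles in the spindle checkpoint and in removing ubiquitin from histone H2B. SOX2 is also expressed in neural progenitors and in the foregut.

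Input counts were summed over the peaks of a gene and are given as CPM, counts scaled to the library's total after TMM normalisation. They are levels within 1 gene, with no correction for length, and are not compared between genes. Calls needed a difference of 2-fold or more together with an adjusted p below 0.1. Input libraries held 2652830 to 6879256 counted reads and IP libraries 2378881 to 15674899, and the 2 MEL1 S4 IP libraries were the shallowest. Mitochondrial transcripts held 26.4% to 41.0% of input reads at S0 and 11.6% to 17.7% at S4 and S6. At S3 their share was 26.8% and 27.5% in H1, and 15.3% and 12.9% in MEL1. Of 16 markers of undifferentiated cells 6 were measured, and all 6 were called lower at S3, as were 13.8% of all genes. Of 8 posterior foregut markers 7 were called higher at S3, and of 7 pancreatic progenitor markers 5 were measured and 4 called higher at S4. Among all genes 15.0% were called higher at S3, 18.0% at S4 and 17.5% at S6. Only 2 of 12 endocrine markers were measured, ISL1 and CHGA, both called higher at S6, and INS was not analysed here, so the label of the S6 cells was checked on few genes. In bulk RNA fewer cells with a transcript and less of it per cell cannot be told apart.

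All 7 factors were lower at S4 and S6 than at S0, and 6 of 7 were called lower at S3 (13.8% of the 7981 genes tested were called lower at S3, 13.3% at S4 and 13.9% at S6). DPPA4, DNMT3B, TERF1 and USP44 dropped steeply by S3 in both lines, ZFP42 went down in steps, and SALL4 declined gradually. SOX2 fell by less than 2-fold in H1 and was almost lost in MEL1 at S3. None of the 7 was called higher in any of the 5 stage comparisons tested over both lines, in which 15.0% of genes were called higher at S3, 18.0% at S4 and 17.5% at S6 against S0, 1.49% from S3 to S4 and 2.86% from S4 to S6.

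**Figure D1:**
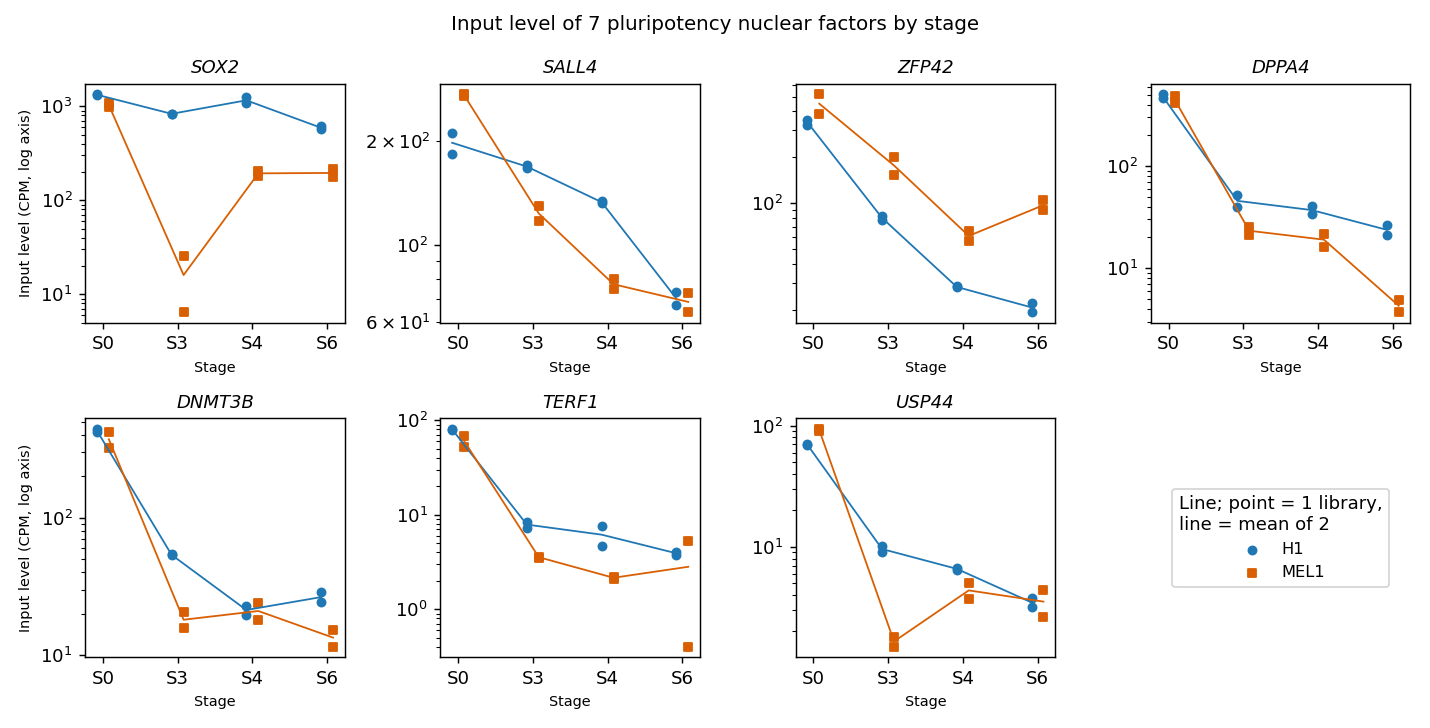
Input level in CPM (log axis) of each factor by stage, with 1 point per library (circles H1, squares MEL1) and lines through the mean of 2 libraries. Every later library lies below every S0 library except for SOX2, where the H1 libraries at S4 (1243 and 1069.8 CPM) overlap the MEL1 libraries at S0 (1080.1 and 974 CPM). How many of all genes separate in this way was not counted, and 13.8%, 13.3% and 13.9% were called lower at S3, S4 and S6.

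The 250 bases before a listed RefSeq start of 3 factors are shown because 2 of them, DPPA4 and DNMT3B, had similar profiles over the 16 input libraries (Pearson's r of log2 CPM 0.954), while SOX2 had r of 0.520 and 0.559 with them. They are RefSeq sequences of build GRCh38.p14, read in the direction of the gene from chr3:181711675-181711924 (plus strand) for SOX2, chr3:109337547-109337796 (minus strand) for DPPA4 and chr20:32779602-32779851 (plus strand) for DNMT3B. The SOX2 start is the outermost of its gene, whereas the starts listed for DPPA4 and DNMT3B lie 2090 and 17467 bases inside the RefSeq span of the gene, so the outermost starts of these 2 genes are not shown. Capitals mark every match, on either strand, to ACAAAG or ACAATG (the core that SOX proteins bind), to the octamer ATGCAAAT, to CCAAT or to GGGCGG (the GC box).
SOX2: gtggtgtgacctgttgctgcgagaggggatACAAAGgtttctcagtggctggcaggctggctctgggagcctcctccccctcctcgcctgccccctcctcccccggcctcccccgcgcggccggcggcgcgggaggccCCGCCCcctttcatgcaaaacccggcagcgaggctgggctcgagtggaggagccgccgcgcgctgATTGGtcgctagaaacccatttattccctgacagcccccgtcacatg
DPPA4: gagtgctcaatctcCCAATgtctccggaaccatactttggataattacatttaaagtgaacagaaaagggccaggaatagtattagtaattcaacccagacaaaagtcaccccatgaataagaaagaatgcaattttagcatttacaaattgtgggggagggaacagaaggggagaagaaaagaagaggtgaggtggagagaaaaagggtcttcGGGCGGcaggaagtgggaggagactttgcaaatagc
DNMT3B: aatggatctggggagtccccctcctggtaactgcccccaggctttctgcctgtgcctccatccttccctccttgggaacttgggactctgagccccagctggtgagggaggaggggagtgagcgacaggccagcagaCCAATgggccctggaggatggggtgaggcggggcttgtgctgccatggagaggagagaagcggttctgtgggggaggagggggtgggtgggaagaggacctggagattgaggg
The SOX2 window held ACAAAG, the GC box and CCAAT once each, the DPPA4 window held CCAAT and the GC box, and the DNMT3B window held CCAAT alone. Of 35116 promoters of the same length 21.2% hold the SOX core, 42.6% the GC box and 1.63% the octamer, which none of the 3 windows has, and 11240 hold CCAAT. GC content was 68.8% for SOX2, 43.2% for DPPA4 and 64.0% for DNMT3B, against a median of 58.0%. Among these motifs the DPPA4 and DNMT3B windows shared CCAAT alone, which the SOX2 window held too. Promoters of 4 of the 7 factors were in the table, and that of ZFP42, not shown, held 3 GC boxes and none of the other motifs.

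DPPA4 is a chromatin-associated protein of pluripotent and germ cells. Its level was 503 and 463 CPM in the 2 H1 libraries at S0, 39.4 and 51.9 at S3, 40.2 and 33.9 at S4, and 21.3 and 26.2 at S6. In MEL1 it was 485 and 419 CPM at S0, 21.2 and 25.3 at S3, 21.8 and 16.2 at S4, and 3.73 and 4.84 at S6. The highest library after S0 held 51.9 CPM and the lowest at S0 held 419. DPPA4 had fallen to 9.45% of its S0 mean in H1 and 5.15% in MEL1 by S3, and to 4.92% and 0.949% by S6. Its log2 fold change was -3.91 at S3 (SE 0.34, edgeR adjusted p = 5.83e-07) and -5.31 at S6 (SE 0.37, edgeR adjusted p = 4.69e-08). DPPA4 was also the 1 factor called lower from S4 to S6, by -1.11 (SE 0.33, edgeR adjusted p = 0.0659), where 2.34% of genes were called lower. The step was larger in MEL1, at -2.14 (edgeR adjusted p = 2.86e-05), than in H1, where it was short of 2-fold at -0.64 (edgeR adjusted p = 0.0212), and the difference between these steps was not tested. It was not called without MEL1 S4 replicate 1, MEL1 S4 replicate 2, MEL1 S6 replicate 1, MEL1 S6 replicate 2 or H1 S4 replicate 1 (edgeR adjusted p between 0.113 and 0.190, with log2 changes of -0.83 to -1.13), nor with the replicate number as a block in each line (-1.12, edgeR adjusted p = 0.107). In MEL1 alone, a choice made after seeing the data, it was -2.14 with the block too (edgeR adjusted p = 3.08e-07).

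DNMT3B is the de novo DNA methyltransferase that is abundant in the early embryo. It stood at 420.2 and 439.8 CPM in H1 at S0, then 53.2 and 54.2 at S3, 23.0 and 19.8 at S4, and 28.8 and 24.2 at S6. The MEL1 libraries held 322 and 421 CPM at S0, 15.7 and 20.5 at S3, 23.9 and 18.1 at S4, and 11.6 and 15.3 at S6. The later libraries of both lines lay far below S0, and H1 was above MEL1 at S3. The log2 fold change was -3.62 at S3 (SE 0.29, edgeR adjusted p = 1.97e-07) and -4.40 at S6 (SE 0.30, edgeR adjusted p = 3.37e-08). H1 reached its low level in 2 steps, since DNMT3B fell there by a further 1.34 on the log2 scale from S3 to S4 (SE 0.19, edgeR adjusted p = 5.67e-05), while the same step in MEL1 was 0.20 (SE 0.23, edgeR adjusted p = 0.615). Whether this step differed between the lines was not tested.

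TERF1 caps telomeres together with the other shelterin proteins, and is abundant in embryonic stem cells. Its single peak gave 79.8 and 80.3 CPM in H1 at S0, 7.29 and 8.45 at S3, 7.65 and 4.67 at S4, and 4.08 and 3.75 at S6. In MEL1 the values were 52.5 and 68.2 CPM at S0, 3.50 and 3.61 at S3, 2.10 and 2.21 at S4, and 5.23 and 0.403 at S6. The lowest library at S0 held 52.5 CPM and the highest later one 8.45, and the last MEL1 value at S6 rests on 1 read. TERF1 changed by -3.69 at S3 (SE 0.37, edgeR adjusted p = 2.51e-06) and by -4.41 at S6 (SE 0.40, edgeR adjusted p = 7.77e-07). Its level is uncertain because 7 TERF1 pseudogenes are named in the gene table and reads shared with them could have been counted either way.

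USP44 removes ubiquitin from CDC20 and from histone H2B. It measured 68.7 and 70.7 CPM in H1 at S0, 9.07 and 10.1 at S3, 6.42 and 6.72 at S4, and 3.20 and 3.75 at S6. MEL1 had 90.3 and 93.4 CPM at S0, 1.50 and 1.81 at S3, 5.04 and 3.69 at S4, and 2.61 and 4.44 at S6. Both lines thus ended near the same level, but MEL1 reached its lowest values at S3 and H1 at S6. The log2 fold change at S3 was -4.01 over both lines (SE 0.44, edgeR adjusted p = 5.37e-06). From S3 to S4 the level in MEL1 rose by 1.37 (SE 0.42, edgeR adjusted p = 0.0306), on libraries of 6 to 12 reads, while H1 changed by -0.54 (SE 0.26, edgeR adjusted p = 0.221). The difference between these 2 changes was not tested.

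ZFP42 (REX1) is a zinc finger protein related to YY1 and a classic marker of the undifferentiated state. The H1 libraries held 353 and 326 CPM at S0, 77.1 and 82.8 at S3, 28.4 and 28.0 at S4, and 19.4 and 22.0 at S6. The MEL1 libraries held 516 and 382 CPM at S0, 200.1 and 153 at S3, 56.2 and 65.6 at S4, and 105 and 89.5 at S6. ZFP42 stepped down at S3 and again at S4, and MEL1 kept more of it than H1 at every later stage. It was the only one of the 7 called lower from S3 to S4, by -1.52 (SE 0.28, edgeR adjusted p = 0.0131), where 0.351% of genes were called lower. The step was -1.50 in H1 and -1.53 in MEL1. With no term for the line its size was the same (-1.53) but it was not called (edgeR adjusted p = 0.384). From S4 to S6 ZFP42 then rose in MEL1 by 0.67 (SE 0.18, edgeR adjusted p = 0.00857), short of 2-fold, and changed by -0.45 in H1 (SE 0.19, edgeR adjusted p = 0.123). A difference between the lines in this step was not tested.

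SALL4 is a zinc finger factor that partners with the NuRD complex, and is expressed in stem cells, fetal liver and germ cells. Its H1 level was 212 and 184 CPM at S0, 167 and 170.2 at S3, 132 and 134 at S4, and 67.3 and 73.2 at S6. Its MEL1 level was 270.2 and 273 CPM at S0, 129.9 and 117 at S3, 74.7 and 79.7 at S4, and 64.2 and 73.0 at S6. SALL4 fell gradually, and the lines met at S6 after MEL1 had dropped earlier. At S3 its change of -0.71 had an edgeR adjusted p of 0.0123 (SE 0.21) but was smaller than 2-fold, and it was called at S4 (-1.19, SE 0.21, edgeR adjusted p = 0.000317) and at S6 (-1.78, SE 0.21, edgeR adjusted p = 1.02e-05).

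SOX2 differed most between the lines at S3. H1 had 1334 and 1317 CPM at S0, 825 and 836 at S3, 1243 and 1069.8 at S4, and 612 and 567 at S6. MEL1 had 1080.1 and 974 CPM at S0, 6.50 and 25.5 at S3, 181 and 205 at S4, and 176 and 214 at S6. H1 therefore kept 62.7% of its S0 mean at S3, 87.2% at S4 and 44.5% at S6, while MEL1 kept 1.56%, 18.8% and 19.0%. No difference between the lines was found at S0 (MEL1 over H1 -0.37, SE 0.23, edgeR adjusted p = 0.251). From S3 to S4 SOX2 came back in MEL1 by 3.57 on the log2 scale (SE 0.30, edgeR adjusted p = 2.14e-08), against 0.48 in H1 (SE 0.23, edgeR adjusted p = 0.223). The lines were not tested against each other for this step. SOX2 lies within the longer transcript SOX2-OT, and how reads of overlapping genes were divided is not given in the sources used here, so its level is uncertain to that extent.

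With both lines in 1 model SOX2 changed by -2.85 at S3 (SE 0.82, edgeR adjusted p = 0.0119), -1.62 at S4 (SE 0.73, edgeR adjusted p = 0.0860) and -2.06 at S6 (SE 0.73, edgeR adjusted p = 0.0314). These values average 2 lines that did different things. With no term for the line none of the 3 was called (-1.47, -0.80 and -1.58, edgeR adjusted p = 0.310, 0.583 and 0.266). The call at S4 was lost without H1 S4 replicate 1, H1 S4 replicate 2, MEL1 S0 replicate 1, MEL1 S0 replicate 2, MEL1 S4 replicate 1 or MEL1 S4 replicate 2 (edgeR adjusted p between 0.114 and 0.187), and with the replicate number as a block in each line (-1.63, edgeR adjusted p = 0.1199).

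Within H1, 5 of 7 factors were called lower at S3 and the same number at S4, all but SOX2 and SALL4, and 7 of 7 at S6 (9.41%, 10.9% and 11.4% of genes were called lower in H1). In MEL1 all 7 were called lower at each stage (22.0%, 22.4% and 19.3% of genes). The change from S0 to S3 differed between the lines for 6 of 7 factors at an adjusted p under 0.1, against 45.9% of all genes. At S4 and S6 it differed for 5 of 7, against 48.1% and 36.4%. A difference between H1 and MEL1 was thus common in the whole table, and at S3 it was largest for SOX2 and USP44 among the 7.

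**Figure D2:**
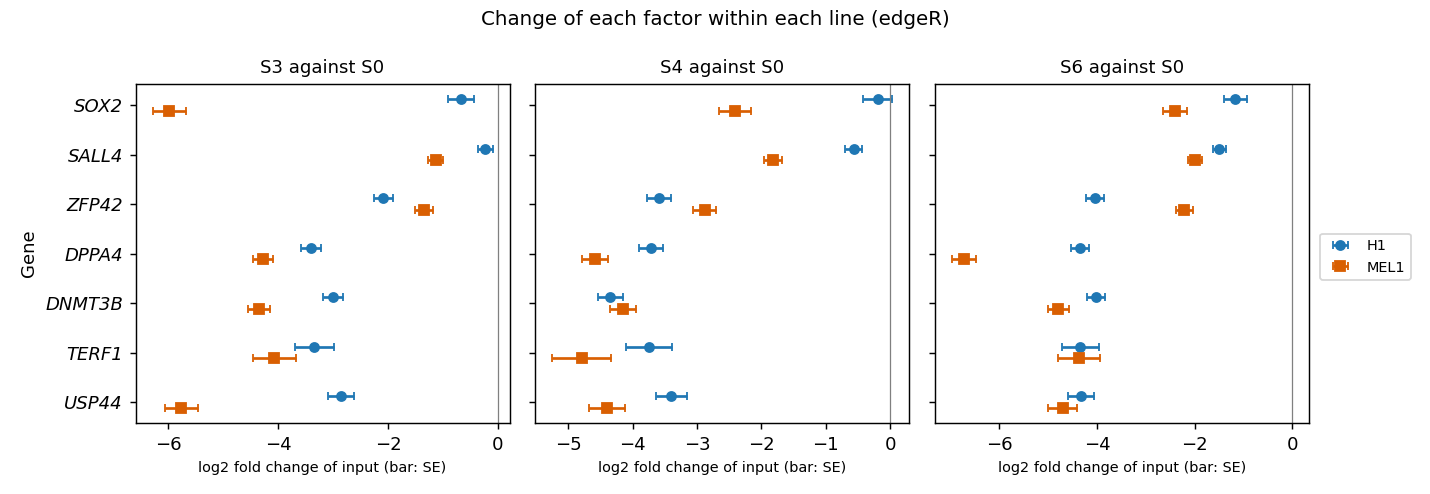
Log2 fold change of input (x axis, bars are SE) of each factor at S3, S4 and S6 against S0, in H1 (circles) and MEL1 (squares), from edgeR's model in which every line has its own stage means. At S3 the SOX2 points lie at -0.67 in H1 and -5.98 in MEL1, and at S6 the largest gaps are those of DPPA4 and ZFP42, in opposite directions.

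The fall of SOX2 at S3 was larger in MEL1 than in H1, with a MEL1 minus H1 difference of -5.30 on the log2 scale (SE 0.38, edgeR adjusted p = 1.18e-09), and 98.2% of genes had a smaller difference in size. For USP44 the difference was -2.91 (SE 0.40, edgeR adjusted p = 8.51e-06), larger than in 91.3% of genes. DNMT3B, SALL4 and DPPA4 also fell further in MEL1, with differences of -1.35, -0.91 and -0.87, larger in size than in 67.9%, 51.1% and 49.4% of genes. ZFP42 went the other way, with a difference of 0.74 (SE 0.23, edgeR adjusted p = 0.0144), and for TERF1 none was found (-0.73, SE 0.53, edgeR adjusted p = 0.293). At S6 the difference was -2.37 for DPPA4 (SE 0.33, edgeR adjusted p = 2.31e-05) and 1.83 for ZFP42 (SE 0.25, edgeR adjusted p = 1.22e-05).

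The sum of a list of neural markers changed along with SOX2 in MEL1, and that of hepatic markers took another course. The neural list held 10 genes, of which 8 were measured, and their summed level in H1 was 1753 to 1767 CPM at S0, 2859 to 2917 at S3, 2656 to 3239 at S4 and 2433 to 2445 at S6. In MEL1 it was 2128 to 2275 CPM at S0, 74.5 to 91.0 at S3, 752 to 874 at S4 and 596 to 636 at S6. In MEL1 the sum dropped at S3 and came partly back at S4, as SOX2 did, while in H1 it was higher at S3 than at S0, where SOX2 was lower. NES, which encodes the neural progenitor filament nestin, was its highest member at S3, with a mean of 39.7 CPM in MEL1 against 2472 in H1. OTX2 came next in MEL1, at 33.1 CPM, and is on the list of pluripotency genes as well. SOX1 and POU3F2 were at 0 reads in both MEL1 libraries at S3 and had means of 12.9 and 30.3 CPM in H1. Of 8 hepatic markers 5 were measured, and their sum was 36331 to 42298 CPM at S3 and 72361 to 74844 at S4 in MEL1, against 492 to 499.8 and 164 to 225 in H1. The MEL1 sum was 23.3 to 26.5 CPM at S0 and 7981 to 8362 at S6, so it rose from S3 to S4, as SOX2 did, and then fell to S6, where SOX2 was close to its S4 level. In H1 it was 1.59 to 4.11 CPM at S0 and 347 to 366 at S6. AFP had means of 4.36 CPM at S0 and 24565 CPM at S4 in MEL1, against 0 reads in both libraries at S0 and a mean of 6.26 CPM at S4 in H1. The sum of 5 measured mesenchymal markers in MEL1 was 136 to 153 CPM at S3 and 723 to 790 at S4. It was 145 to 170 CPM in MEL1 at S0 and 252 to 258 at S6, and 70.6 to 95.8 in H1 at S4. The part of these other cell types in the levels of SOX2 was not tested.

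**Figure D3:**
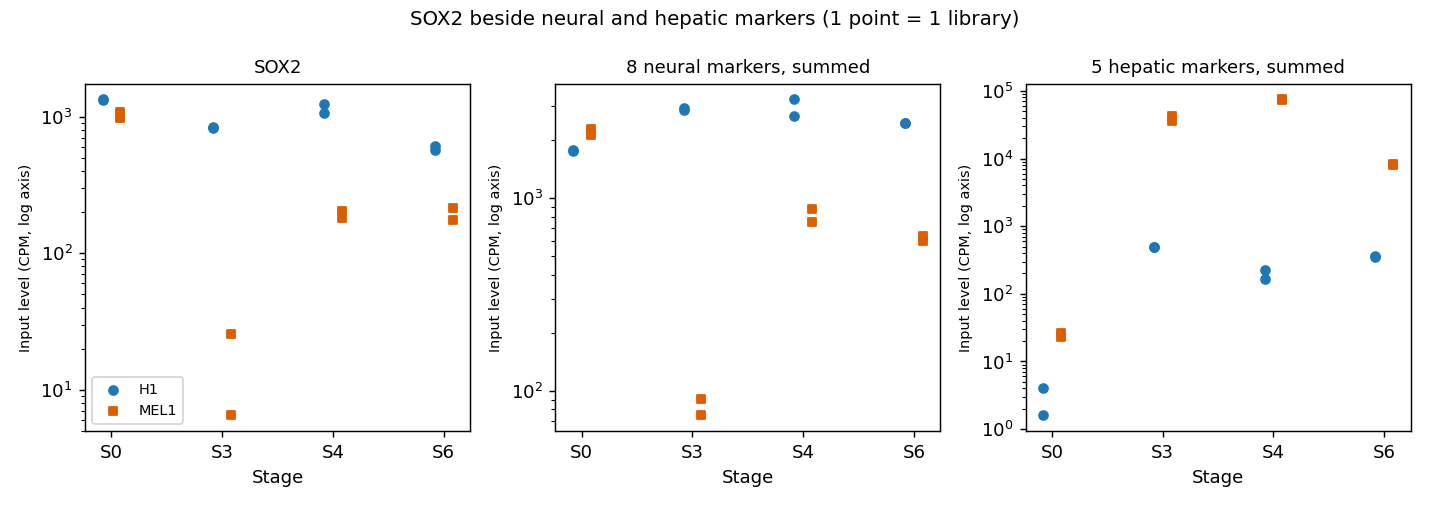
SOX2, the sum of 8 neural markers and the sum of 5 hepatic markers by stage, in CPM on a log axis, with 1 point per input library (circles H1, squares MEL1). SOX2 and the neural sum share their low point in the MEL1 S3 libraries, at 6.50 and 25.5 CPM and at 74.5 and 91.0 CPM, where the hepatic sum is 36331 and 42298 CPM.

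Genes that work with these factors were counted from lists. Of 35 further pluripotency genes 21 were measured, and 13 were called lower and 2 higher at S3 (13.8% and 15.0% of all genes), with a median log2 change of -1.61 against -0.02 for all genes. Among the 13 were the growth factor gene FGF2 (-3.63), the RNA-binding gene L1TD1 (-4.66) and the transcription factor genes FOXD3 (-3.07), TFAP2C (-3.23) and VRTN (-2.98). KLF5 (3.62) and LEFTY2 (1.88) were the 2 that rose. At S4, 10 of the 21 were called lower and 2 higher (13.3% and 18.0% of all genes), and at S6 12 and 2 (13.9% and 17.5%), with medians of -1.31 and -1.39 against 0.04 and 0.03 for all genes.

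The families of the 7 did not all follow them, and their counts at S3 stand beside 13.8% of all genes called lower, 15.0% called higher and a median of -0.02. Of 17 other SOX genes 10 were measured, none was called lower at S3, and SOX17 (5.61), the factor of definitive endoderm, and SOX1 (3.60) were called higher, with a median of 0.36 over the 10. The SOX1 call came from H1 (means of 0.462 CPM at S0 and 12.9 at S3), since MEL1 had a mean of 0.206 CPM at S0 and 0 reads in both libraries at S3. SALL2 (-1.54, also the median of SALL1 to SALL3) and SALL3 (-3.51) were called lower at S3, and SALL1 (-1.21) was called lower at S4. Among 6 measured enzymes of DNA methylation TET1 fell (-1.27) and TET3 rose (1.43) at S3, with a median of 0.39. Of 8 measured shelterin and telomerase genes DKC1 (-1.54) and NOP10 (-1.08), both of the telomerase RNA particle, were called lower at S3, with a median of -0.35. Of 9 measured genes around USP44, the spindle checkpoint genes TTK (-1.41), CDC20 (-1.30), BUB1B (-2.25) and BUB1 (-2.47) were called lower at S3, and the median of the 9 was -0.03. YY1, the relative of ZFP42, changed by -0.57 and was not called.

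Profiles over the 16 input libraries were compared by Pearson's r of log2 CPM, as a description in which the points share their stage and line. The 6 pairs among DPPA4, DNMT3B, TERF1 and USP44 had r between 0.887 and 0.963, highest for DNMT3B and USP44. The 6 pairs with SOX2 had r between -0.07 and 0.676, lowest for ZFP42. The 5 genes outside the 7 whose profile was most like the mean of the factors, among 5531 genes compared, were CEBPZ (0.977), SET (0.971), RBMXL1 (0.971), NLN (0.970) and UNG (0.967). The single most alike gene was GLI2 (0.978) for SOX2, METAP2 (0.968) for SALL4, B3GNT2 (0.948) for ZFP42, MRPL44 (0.972) for DPPA4, UNG (0.975) for DNMT3B, NLN (0.953) for TERF1 and P2RY1 (0.980) for USP44.

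IP over input was then compared among the 31 peaks, each named by its listed position within the gene, where no chromosome position is used. At S0, 8 of 31 peaks were called higher in IP than in input and 8 were called lower, against 30.7% and 24.9% of all peaks. The factors differed sharply from one another. DNMT3B had no enriched peak, and all 6 of its peaks were called lower, from -3.48 at position 3201 to -5.59 at position 1001. At position 1201 its H1 preparations at S0 had 71 and 103 IP reads against 522 and 566 input reads, and its MEL1 preparations had 28 and 28 against 515 and 653. Scaled for depth, its ratio was -5.15 (SE 0.68, edgeR adjusted p = 3.24e-07) beside a median of 0.28 over all peaks, and 1.87% of peaks had a lower one.

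Of the other 6 factors all but ZFP42 had a peak called higher in IP than in input over both lines. The highest of the 31 was DPPA4 at position 4247, with a log2 ratio of 3.12 (SE 0.68, edgeR adjusted p = 0.000360), and 353 and 427 IP reads in H1 against 14 and 35 input reads. USP44 at position 1637 had 2.79 (SE 0.74, edgeR adjusted p = 0.00231) and at 2737 it had 1.91 (SE 0.47, edgeR adjusted p = 0.00121). SALL4 had 2.54 at its last peak, 4423 (SE 0.30, edgeR adjusted p = 7.02e-08), and 1.82 at its first, 1223 (SE 0.31, edgeR adjusted p = 1.65e-05). The single TERF1 peak stood at 1.86 (SE 0.33, edgeR adjusted p = 3.32e-05), and 79.1% of peaks were lower.

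SOX2 had 1 enriched peak among 7 over both lines. The peak at 1051 took most of its reads, with 61841 and 74021 IP reads in H1 at S0, 41912 and 49111 in MEL1, and a log2 ratio of 2.004 (SE 0.73, edgeR adjusted p = 0.0234). Within 1 transcript the ratios over both lines thus ran from -0.96 at position 651 to 2.004 at position 1051. In MEL1 the SOX2 peak at 2051 was called higher too (1.76, SE 0.59, edgeR adjusted p = 0.0149), while in H1 it stood at -0.11. DPPA4 was mixed as well, since its peaks at 4247 and 1597 (1.23) were called higher while those at 1197 (-2.48) and 1997 (-2.84) were called lower. Neither ZFP42 peak reached 2-fold over both lines (0.61 at position 301 and 0.97 at position 801), but the one at 801 was called higher in MEL1 (1.11, SE 0.24, edgeR adjusted p = 0.000344). Both values near 2-fold depended on the scaling, since with RLE size factors DPPA4 at 1597 was at 0.68 (edgeR adjusted p = 0.0905) and no longer called, and ZFP42 at 801 was at 0.31, whereas with TMM within each library type ZFP42 at 801 was called (1.09, edgeR adjusted p = 0.00446).

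**Figure D4:**
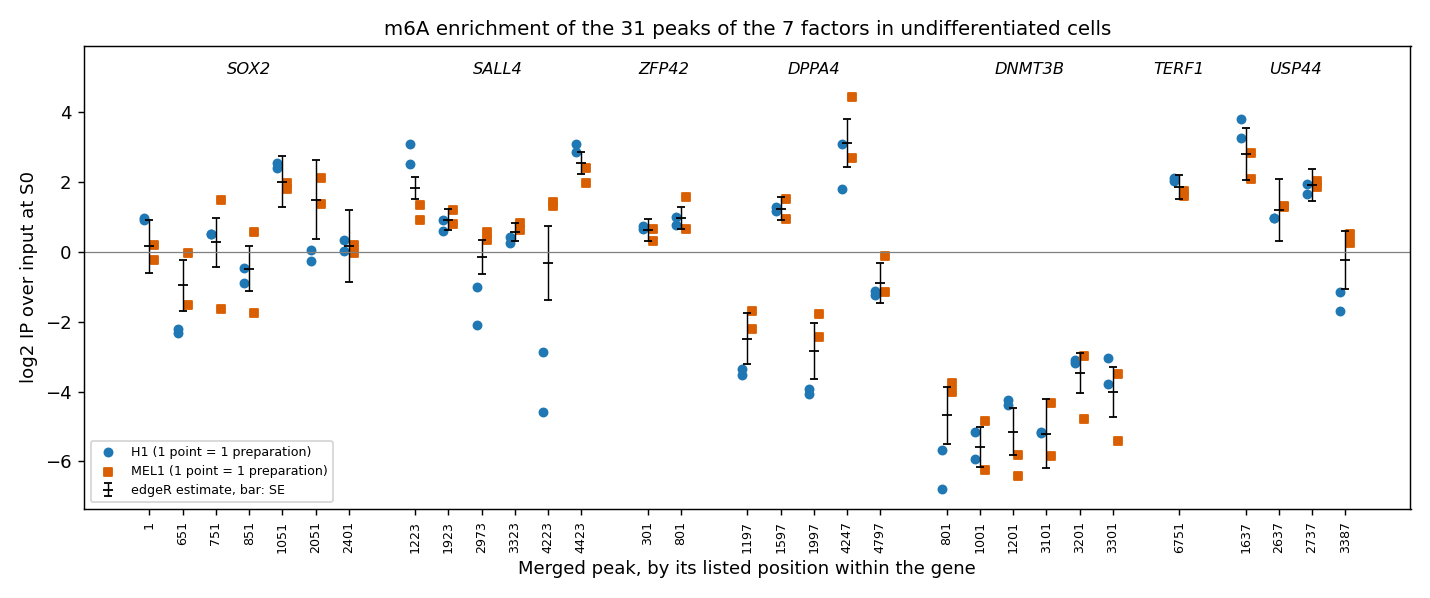
Log2 IP over input at S0 for each of the 31 peaks, grouped by gene and ordered by listed position, with 1 point per preparation (circles H1, squares MEL1) and edgeR's estimate with its SE in black. The estimates of all 6 DNMT3B peaks lie between -3.48 and -5.59, with preparations from -6.79 to -2.99, while the highest estimates are DPPA4 4247 at 3.12 and USP44 1637 at 2.79.

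By line, 8 of 31 peaks were called higher at S0 in H1 (31.5% of all peaks) and 12 in MEL1 (28.0%), while 13 were called lower in H1 (27.2%) and 8 in MEL1 (27.3%). SALL4 at 1223 had a log2 ratio of 2.78 in H1 and 1.12 in MEL1, and SOX2 at 651 had -2.28 in H1 and -0.65 in MEL1. These differences between the lines at S0 were not tested.

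At S3 no change of m6A in the 31 peaks was found over both lines. None was called (0.0498% of all peaks were), 0 had an unadjusted p under 0.05 in edgeR's test, and DESeq2 called 0 as well. At S4 against S0, 2 peaks were called, both lower (11.3% of all peaks), while DESeq2 called 0 and a term for each preparation, which pairs its IP with its input, gave 5, and at S6 none (1.26%), with 4 at an unadjusted p under 0.05 and 2 called by DESeq2. The median change of the 31 was -0.15 at S3, -0.35 at S4 and -0.10 at S6, beside -0.20, -0.58 and -0.35 for all peaks. At S3 and S6 the input of the factors was lower, that of SALL4 at S3 by less than 2-fold. There edgeR called no change in IP over input for their peaks over both lines, which does not show that the ratios stayed the same.

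The 2 peaks called at S4 were in SOX2 and ZFP42. The SOX2 peak at 2401 had 127 and 211 IP reads in H1 at S0 and 283 and 347 at S3, then 0 and 0 at S4 against 24 and 47 input reads, and 21 and 18 at S6. MEL1 had 127 and 349 IP reads of it at S0 and neither IP nor input reads after that, so the later values come from H1. No fold is given for a group at 0 (edgeR adjusted p = 0.0448 at S4 against S0 and 0.0445 at S4 against S3). It was the only one of the 31 called from S3 to S4 (6.60% of all peaks). Without H1 S4 replicate 1 or H1 S4 replicate 2 the call was lost in both comparisons (edgeR adjusted p between 0.181 and 0.281), and without H1 S3 replicate 1 it was lost at S4 against S3 (edgeR adjusted p = 0.102). DESeq2 called it in neither comparison (adjusted p = 0.348 at S4 against S0 and 0.273 at S4 against S3), and with RLE size factors it was not called at S4 against S3 (edgeR adjusted p = 0.1002).

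ZFP42 at 801 had log2 ratios of 0.759 and 0.999 in H1 and 0.65 and 1.57 in MEL1 at S0, and of -0.52 and -0.19 in H1 and 0.42 and -0.76 in MEL1 at S4. The change was -1.18 (SE 0.44, edgeR adjusted p = 0.0988), about the same in H1 (-1.21) and MEL1 (-1.19). Its S4 ratios lay below all S0 ratios, and the median change of all peaks at S4 was -0.58. The adjusted p was near the threshold, and the call was lost when any 1 of these was left out: either H1 preparation at S0, S3 or S4, H1 S6 replicate 2, either MEL1 preparation at S0 or S3, MEL1 S4 replicate 2 or MEL1 S6 replicate 2 (edgeR adjusted p between 0.102 and 0.713). Without H1 S4 replicate 1 the change was -0.54. With a term for each preparation it was called (-1.25, edgeR adjusted p = 0.0297). The call was lost in DESeq2 (-0.67, adjusted p = 0.424), with TMM within each library type (-0.77, edgeR adjusted p = 0.381), with RLE size factors (-0.67, edgeR adjusted p = 0.467), with only the 16 libraries compared (-0.82, edgeR adjusted p = 0.430) and with the replicate block (-1.20, edgeR adjusted p = 0.118). From S4 to S6 edgeR called 1 peak (7.58% of all peaks), SOX2 at 651, at -3.69 (SE 1.09, edgeR adjusted p = 0.0528). For this step DESeq2 called 5 peaks and a term for each preparation gave 2, with SOX2 at 651 among them both times. It had 1386 and 1569 IP reads in H1 at S4 against 88 and 123 at S6. The call was lost without H1 S4 replicate 2, H1 S6 replicate 1, H1 S6 replicate 2, MEL1 S6 replicate 1 or MEL1 S6 replicate 2.

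Over both lines the number of calls depended on the MEL1 S4 preparations, whose IP libraries were shallow. Without MEL1 S4 replicate 2, 5 of 31 peaks were called for S4 against S0, 3 for the step from S3 to S4 and 3 for that from S4 to S6. Without both MEL1 S4 preparations, a choice made after seeing the data, 7, 4 and 3 were called. Without H1 S4 replicate 1 or H1 S4 replicate 2 none was called at S4 against S0.

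When each line was given its own stage means, more peaks passed. In H1, 0 of 31 were called lower and 0 higher at S3 (0.858% and 0.111% of all peaks), 8 lower and 2 higher at S4 (25.6% and 6.48%), and 0 lower and 0 higher at S6 (1.51% and 0.172%). In MEL1, 2 were called lower and 1 higher at S3 (11.4% and 7.58%), 3 lower and 2 higher at S4 (12.4% and 2.36%), and 4 lower and 1 higher at S6 (15.7% and 5.57%). These counts changed when each line was fitted alone. With H1 fitted alone, a choice made after seeing the data, 5, 15 and 6 of 31 were called in either direction at S3, S4 and S6, and with MEL1 alone 1, 0 and 3. The counts at S4 in H1 were close to the shares of all peaks, whose median change there was -0.66. The change differed between the lines at 3 of 31 peaks at S3, against 12.3% of all peaks, at 3 at S4 (18.9%) and at 1 at S6 (6.57%).

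SOX2 at 1051, the factors' most heavily covered peak, was among the 8 that were lower at S4 in H1. Its log2 ratio in H1 was 2.53 and 2.40 at S0, 2.09 and 2.14 at S3, 0.997 and 1.36 at S4, and 1.55 and 1.71 at S6. In MEL1 it was 1.79 and 1.98 at S0, 2.71 and 0.45 at S3 on 20 and 84 input reads, 1.20 and 1.11 at S4, and 1.37 and 1.12 at S6. The ratio was lowest at S4 in H1 and below S0 at S4 and S6 in both lines. Its change at S4 was -1.27 in H1 (SE 0.34, edgeR adjusted p = 0.00640) and -0.73 in MEL1 (SE 0.34, edgeR adjusted p = 0.175), and the lines were not found to differ (edgeR adjusted p = 0.495). Over all peaks the median change from S0 was -0.66 in H1 and -0.61 in MEL1 at S4, and -0.31 and -0.32 at S6. The SOX2 peak at 651 went the other way in H1 at S4, by 3.12 (SE 0.50, edgeR adjusted p = 4.85e-05), from 160 and 237 IP reads at S0 to 1386 and 1569. In H1 the ratio at 651 thus rose at S4, while that at 1051 fell, and at S6 it was back at -2.28 and -2.31.

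SALL4 at 4423 and TERF1 at 6751 were over input in every preparation. SALL4 had log2 ratios of 2.85 and 3.07 in H1 and 2.39 and 1.97 in MEL1 at S0, and of 2.86 and 3.00 in H1 and 3.11 and 2.30 in MEL1 at S6. TERF1 had 2.11 and 2.02 in H1 and 1.59 and 1.74 in MEL1 at S0, and 2.41 and 2.59 in H1 and 2.03 and 4.96 in MEL1 at S6, where the last value rests on 1 input read. TERF1 input had by then dropped to 4.08 CPM or less in 3 of 4 libraries. Neither peak was called in any of the 5 comparisons over both lines, which does not show that they stayed the same.

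**Figure D5:**
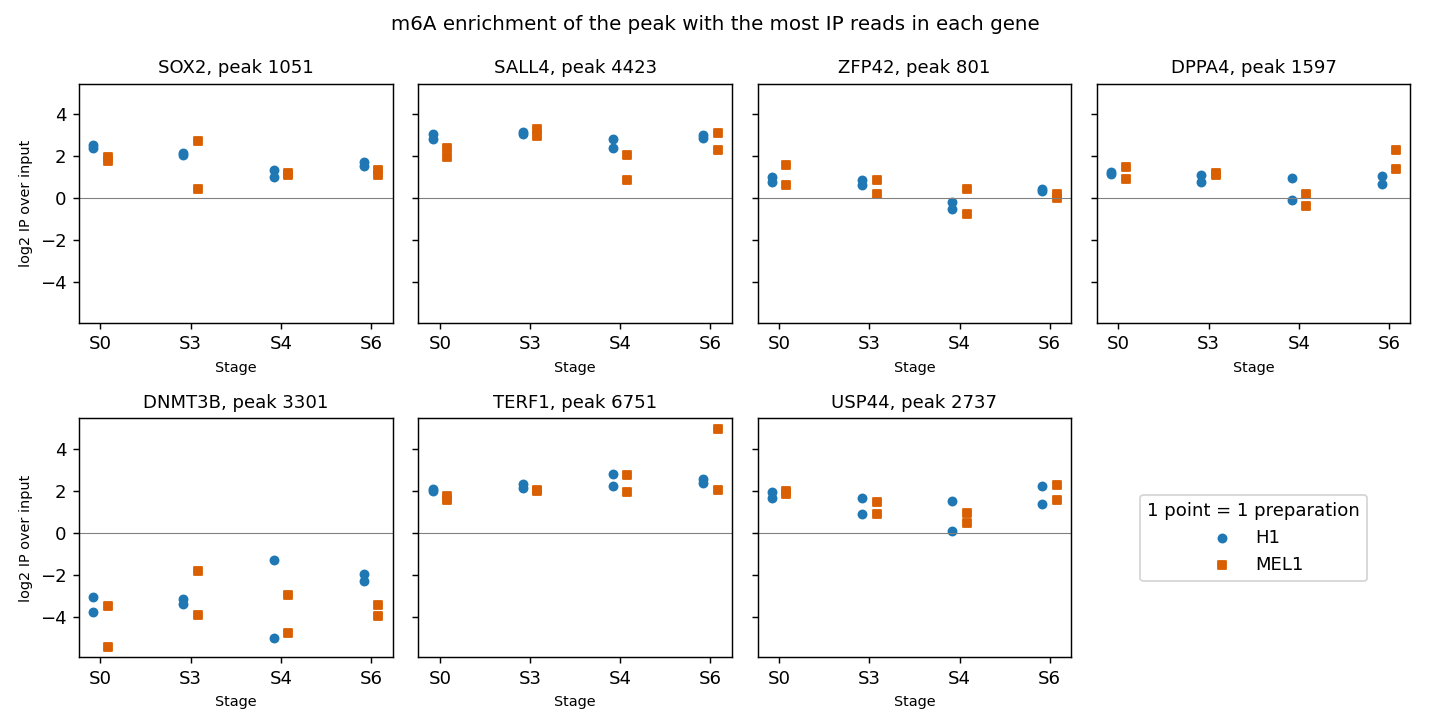
Log2 IP over input by stage for the peak with the most IP reads in each gene, with 1 point per preparation (circles H1, squares MEL1). SOX2 1051 is lower at S4 than at S0 in both lines, where the median change of all peaks is -0.66 in H1 and -0.61 in MEL1. SALL4 4423 and TERF1 6751 stay above 0 in every preparation, and DNMT3B 3301 stays below 0 in every preparation. DNMT3B 3301 has 0 IP reads in 1, 3 and 2 of 4 preparations at S3, S4 and S6, where its ratio depends on the prior count.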

How the data were processed

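Reads had been counted by the authors in bins of 50 bp along genes of Ensembl version 94, peaks were called and merged with MeRIPtools, and the deposited table holds raw counts per merged peak and library. The aligner, genome build and peak settings are not given in the sources used here. Input counts were summed over the peaks of a gene by its Ensembl identifier, and 7946 of 7986 genes were matched to a symbol. Features with a total of at least 10 reads were tested with edgeR 4.0.16 in R 4.3.3 (TMM scaling, quasi-likelihood test, stage and cell line as terms, Benjamini-Hochberg adjustment over all 7981 genes or 26104 peaks). m6A change was tested as a stage-by-library-type interaction in all 32 libraries. Changes within a line and differences between lines came from a model in which every line had its own stage means. SE was the log2 change divided by the square root of F. DESeq2 1.42.0 was an alternative, and others are given at the end. All 7 factors and every called or most covered peak are named, listed genes only where called (YY1, uncalled, was named after its value was seen), and the most alike genes among those with a mean of at least 10 CPM. The factors and lists were chosen with earlier results of these data known. The scripts were tested on simulated data.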

Additional observations from a re-analysis of the deposited data

Results flagged for a closer look

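Among 56 groups of 4 libraries, 2 held a value further from the others than Dixon's 95% limit, and chance sets apart about 1 in 20. In undifferentiated cells DNMT3B was at 322 CPM in MEL1 replicate 1, below the other libraries. At S6 TERF1 was at 0.403 CPM in MEL1 replicate 2, which is 1 read.

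The change of input level from S0 differed between the lines by a test of the difference itself. As MEL1 minus H1 on the log2 scale, it was -5.30 for SOX2, -0.91 for SALL4, 0.74 for ZFP42, -0.87 for DPPA4, -1.35 for DNMT3B and -2.91 for USP44 at S3. At S4 it was -2.21 for SOX2, -1.24 for SALL4, 0.71 for ZFP42, -0.86 for DPPA4 and -1.002 for USP44. At S6 it was -1.23 for SOX2, -0.49 for SALL4, 1.83 for ZFP42, -2.37 for DPPA4 and -0.78 for DNMT3B.

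The m6A change from S0 differed between the lines at 3 of 31 peaks at S3 (12.3% of all peaks), 3 at S4 (18.9%) and 1 at S6 (6.57%). At S3 the difference, MEL1 minus H1, was -5.98 for SALL4 at 4223, -6.22 for DPPA4 at 1997 and 3.47 for DNMT3B at 1201. At S4 it was 8.03 for DNMT3B at 1201, 6.44 for DNMT3B at 3101 and 4.82 for USP44 at 2637. At S6 it was -2.74 for SOX2 at 651. Several of these rest on groups with 0 IP reads, where the fitted value depends on the prior count and is no measure of size. DNMT3B at 1201 had 0 and 0 IP reads in H1 at S4 and 0 and 6 in MEL1.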

How the results depend on the processing

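No called change over both lines turned its direction under any alternative run, nor did a called difference between the lines in expression at S3. Other differences between the lines, and S0 enrichment of peaks other than the most covered, were not run again. Changes within a line were run again only in fits of that line alone. The number of factors lower at S3, S4 and S6 against S0 stayed within 1.5 times, also with the mitochondrial genes left out. From S3 to S4 it was 0 with no term for the line and 2 in H1 alone, and from S4 to S6 it was 0 with no term for the line, 0 in H1 alone and 0 to 1 when 1 replicate was left out. For m6A, DESeq2 called 0 peaks at S4 and 2 at S6 against S0, and 5 from S4 to S6. TMM within each library type, or only the 16 libraries compared, gave 1 at S4 against S0, and RLE factors gave 1 there and 0 at S4 against S3. A term for each preparation gave 5 at S4 against S0 and 2 at S6 against S4. Leaving out 1 replicate gave 0 to 5 at S4 and 0 to 1 at S6 against S0, 0 to 3 from S3 to S4 and 0 to 3 from S4 to S6. Of settings chosen after seeing the data, H1 alone gave 5, 15 and 6 peaks at S3, S4 and S6 against S0, 10 from S3 to S4 and 7 from S4 to S6. MEL1 alone gave 1, 0, 3, 2 and 4. Without both MEL1 S4 preparations the numbers were 7 at S4 and 2 at S6 against S0, 4 from S3 to S4 and 3 from S4 to S6, and a line term within each library type gave 1 at S4 against S0. Where a number moved, the cause was not tested. Of 41 uncalled m6A changes of named peaks, 15 changed sign and 14 were called under some alternative.

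The replicate numbers were not taken to pair samples, since the deviations of same-numbered samples correlated at -0.06 to 0.189 and 6 of 12 pairs were over 0.1. These were the 6 pairs of MEL1 (0.118 to 0.189), so a block was also tried in MEL1 alone after seeing the data, where it gave 1, 0 and 1 peaks for m6A at S3, S4 and S6 against S0, 2 from S3 to S4 and 3 from S4 to S6, and moved no number of factors called by over 1.5 times. With the replicate block in both lines the number lower from S4 to S6 was 0, SOX2 was no longer called lower at S4 against S0, and 1 peak was called for m6A at S4 against S0. Input depth limits the m6A results at later stages, since of the 124 pairs of a factor's peak and a preparation in each stage 2.42% had under 10 input reads for S0. The share was 27.4% for S3, 34.7% for S4 and 40.3% for S6.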
